A study of Mus musculus with 10 samples.

Results

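Cadherins are calcium-dependent adhesion proteins that bind cells to their neighbours. The genes described here are the numbered cadherins other than Cdh1, Cdh2 and Cdh5, the desmogleins (Dsg) and desmocollins (Dsc) of desmosomes, and the protocadherins (Pcdh), chosen by gene symbol alone. The day 7 table listed 85 such genes among 17816 genes and the adult table listed 94 among 20007. All 85 were also in the adult table, and 9 genes were in the adult table alone. Of the 94 genes, 65 lie on chromosome 18, where the desmosomal cadherins and the 3 protocadherin clusters are found. Of 99 mouse RefSeq genes that match the symbols, 5 were in neither table and were not analysed here.

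Classical cadherins hold adherens junctions together through catenins, which tie them to actin. Desmosomal cadherins do the same work for intermediate filaments, through plakoglobin, plakophilins and desmoplakin. In the seminiferous epithelium, Sertoli cells carry desmosome-like junctions towards germ cells and towards each other, next to the tight junctions of the blood-testis barrier. The clustered protocadherins are arranged in 3 arrays, Pcdha, Pcdhb and Pcdhg. In the alpha and gamma arrays each gene has its own first exon, which is joined to exons common to the whole array, and the choice among first exons gives cells different adhesive identities. Solitary protocadherins of the delta groups are best known from the sorting of neurons.

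The study examined what RNF20, an E3 ligase that adds ubiquitin to histone H2B, does in Sertoli cells as sperm are made. It used RNA-seq to look for possible roles in transcription. RNA-seq was analysed here from 10 mouse samples. At 7 days after birth there were 2 samples of Sertoli cells from control mice, labelled WT and described in the study's methods as Rnf20 Flox/Flox, and 2 from conditional knockout mice, Amh-Rnf20-/-. The adult set held whole testis, with 3 samples labelled WT and 3 labelled RNF20 conditional knockout. In Amh-Rnf20-/- mice a Cre recombinase under the Amh promoter removes floxed Rnf20 exons in Sertoli cells, so that germ cells and interstitial cells keep the gene. Sertoli cells of day 7 were dissociated with enzymes and grown as adherent cultures before RNA was taken, and the adult RNA came from all cells of the testis. For day 7 the study's methods name more individuals per group than the 2 samples analysed here, and the growth protocol in the labels names adult tissue for every sample, although titles and cell type mark these as day 7 Sertoli cells. Whether each sample was 1 animal is not given in the sources used here, so p-values measure the spread between these samples.

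Read totals were similar, from 17477268 to 17705347 counts per sample at day 7 and from 15431912 to 16574144 in adult testis. Rnf20 itself had FPKM values (fragments scaled to transcript length and library size) of 16.64 and 16.01 in the day 7 controls and of 10.25 and 12.58 in the Amh-Rnf20-/- libraries, with a log2 fold change of −0.49 (SE 0.12, adjusted p = 0.222 in edgeR's quasi-likelihood test). In adult testis it had 4.89, 3.32 and 4.09 in controls against 9.16, 5.76 and 9.85 in the libraries labelled knockout (log2 fold change 0.12, SE 0.27, adjusted p = 0.688), so that it was not lower there and the adult group is named by its label throughout. One library stood apart in each labelled knockout group. The first day 7 knockout had Sox9, a Sertoli cell transcription factor gene, at 10.19 against 25.66 in the second. The first adult library labelled knockout had Sox9 at 1.20 against 9.86 and 12.65 in the others, and a summed FPKM of 10 spermatocyte genes of 2.85 against 299 and 397. In bulk RNA, fewer cells of a type and less RNA per cell cannot be told apart.

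The promoters of 3 genes that the results below turn on are shown first. Cdh23 had lower values in both knockout samples of day 7, Pcdh18 was called higher in adult testis, and Cdh26 was called lower there. Each window holds 250 bases before and 50 bases after the start site in RefSeq (GRCm38.p6), written 5′ to 3′ on the gene's strand, with CG dinucleotides in capitals. The Cdh23 window is chr10:60696441-60696740 on the minus strand, that of Pcdh18 is chr3:49757267-49757566 on the minus strand, and that of Cdh26 is chr2:178430265-178430564 on the plus strand.
Cdh23: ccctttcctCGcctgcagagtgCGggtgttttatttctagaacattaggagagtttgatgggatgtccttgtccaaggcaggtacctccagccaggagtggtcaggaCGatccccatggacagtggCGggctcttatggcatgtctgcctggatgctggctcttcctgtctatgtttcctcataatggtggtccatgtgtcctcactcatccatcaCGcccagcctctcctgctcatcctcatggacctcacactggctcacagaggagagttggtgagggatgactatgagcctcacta
Pcdh18: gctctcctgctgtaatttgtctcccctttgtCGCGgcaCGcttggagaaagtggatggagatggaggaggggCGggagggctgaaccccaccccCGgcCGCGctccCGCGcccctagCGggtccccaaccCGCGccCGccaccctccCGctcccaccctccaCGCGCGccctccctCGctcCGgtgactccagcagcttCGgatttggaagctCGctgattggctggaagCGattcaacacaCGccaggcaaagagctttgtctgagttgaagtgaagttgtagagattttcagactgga
Cdh26: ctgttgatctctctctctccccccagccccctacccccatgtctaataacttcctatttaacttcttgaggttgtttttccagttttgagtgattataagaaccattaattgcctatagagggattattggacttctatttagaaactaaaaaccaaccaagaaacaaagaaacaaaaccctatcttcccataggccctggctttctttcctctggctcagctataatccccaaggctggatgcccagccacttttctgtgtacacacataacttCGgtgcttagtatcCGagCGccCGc

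The Pcdh18 window held 23 CG dinucleotides, a number reached by 21.5% of the 32851 promoters in the table. Cdh23 had 5 and Cdh26 had 4, numbers reached by 62% and 68.6% of promoters, and the median promoter had 7. G and C made up 63% of the Pcdh18 window, 54% of that of Cdh23 and 44% of that of Cdh26, against a median of 52.7%. None of the 3 windows held TATAAA on either strand, which 13.6% of all promoters did. These counts describe the letters of each window and were not tied to expression by any test.

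In the day 7 Sertoli cells, the members with the highest FPKM were Pcdhgc3, Cdh3 and Cdh11, at 51.72, 47.43 and 34.04 in the first control. None of the members was called as changed in the Amh-Rnf20-/- libraries. Among the members, 4 had a mean FPKM of at least 10, and 35 had a mean of at least 1. A member was tested where at least 2 samples reached an FPKM of 0.5, which left 39 members, among 12880 genes. The count of members called was 0 at the study's thresholds of an absolute log2 fold change over 1 with an adjusted p under 0.001 in edgeR's quasi-likelihood test, and 0% of all genes tested were. Limma also called 0 members and 0% of all genes, while DESeq2 called 0 members and 0.978% of all genes (126). At an unadjusted p under 0.05 in edgeR, 7 members had higher values in the Amh-Rnf20-/- libraries (8.52% of all genes tested did) and 1 had lower values (6.99% of all genes). Both Amh-Rnf20-/- libraries lay above both controls in 18 of the 39 members, or 46.2%, against 24.8% of all genes, and below both controls in 4 members, or 10.3%, against 26.1% of all genes. The median log2 fold change was 0.28 over the tested members, 0.02 over the 14 tested members outside the clusters and 0.00 over all genes. Of the 18 genes, 12 were gamma protocadherins, which share exons and so are not separate observations.

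**Figure D1:**
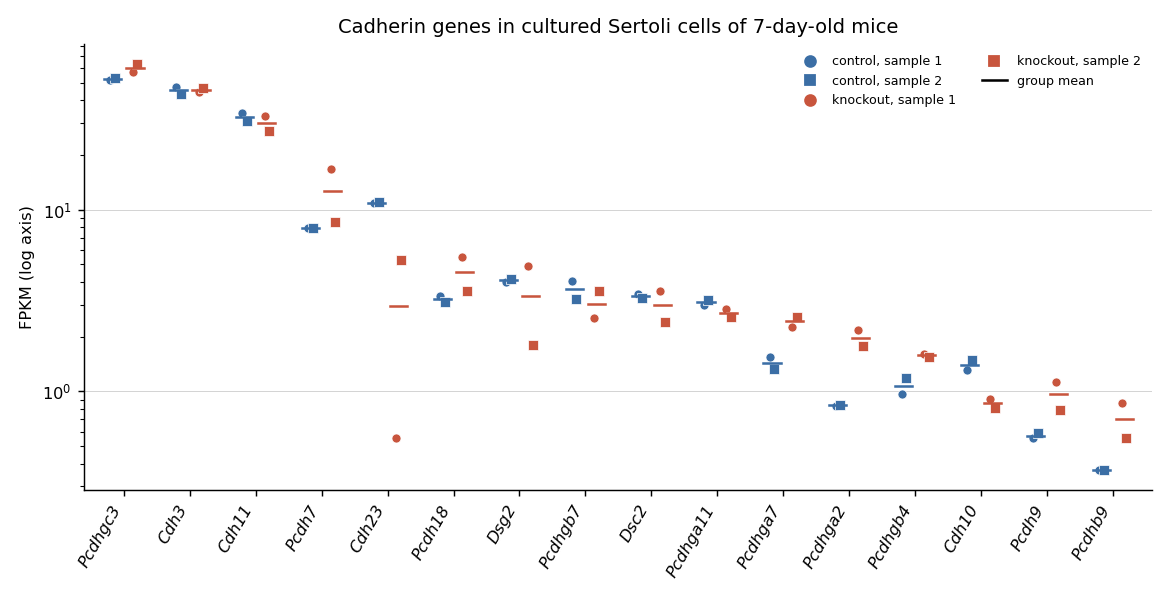
FPKM on a log axis for the 16 members described in full at day 7, with a point per sample (2 controls in blue, 2 Amh-Rnf20-/- in red) and a line at each group mean. Cdh3 and Cdh11 overlap between the groups, and Cdh23 spans from 0.55 to 5.31 within the Amh-Rnf20-/- group.

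Among the classical cadherins, Cdh3, which encodes P-cadherin of epithelial junctions (Entrez 12560, chromosome 8, 106510852 to 106556911 in GRCm38.p6), had 47.43 and 43.32 FPKM in the controls against 44.56 and 46.79 in Amh-Rnf20-/-. The 4 values were interleaved, and the log2 fold change was 0.05 (SE 0.09, adjusted p = 0.83). Cdh11, the mesenchymal type II cadherin known as OB-cadherin (Entrez 12552, chromosome 8, 102632095 to 102785493), had 34.04 and 30.86 in the controls against 32.60 and 27.14 in Amh-Rnf20-/-. Its groups overlapped as well (log2 fold change −0.08, SE 0.13, adjusted p = 0.803). Cdh10, a type II cadherin best known from brain, was the 1 member with lower values at an unadjusted p under 0.05. It had 1.31 and 1.48 FPKM in the controls against 0.91 and 0.81 in Amh-Rnf20-/-. The log2 fold change was −0.65 (SE 0.22, adjusted p = 0.297 in edgeR's test). Cdh24 was close to level at 0.07 (SE 0.15), and the 8 other type II genes and the 2 other type I genes did not pass the filter.

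Cdh23 had the largest fitted difference among the members tested at day 7. It encodes a long cadherin that pairs with protocadherin 15 at the tip links of inner ear hair cells (Entrez 22295, chromosome 10, 60302748 to 60696513). Controls had 10.86 and 11.03 FPKM, against 0.55 and 5.31 in Amh-Rnf20-/-, or counts of 1022 and 1047 against 55 and 530. The groups did not overlap, but the Amh-Rnf20-/- pair differed widely from each other. The log2 fold change was −1.79 (SE 0.94, adjusted p = 0.43 in edgeR's test). With the first Amh-Rnf20-/- library left out it was −0.94 (adjusted p = 0.000452), and with the second left out −4.18 (adjusted p = 1.93e-06). Sox9 was also lowest in the first Amh-Rnf20-/- library, with 41.84 and 39.43 in the controls against 10.19 and 25.66. The Sertoli cell list of 14 genes had 13 tested, of which 8 were lower without overlap (26.1% of all genes were), at a median log2 fold change of −0.49. Their summed FPKM was 1469 to 1617 in the controls against 928 and 1205. The part of this in the Cdh23 values was not tested.

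**Figure D2:**
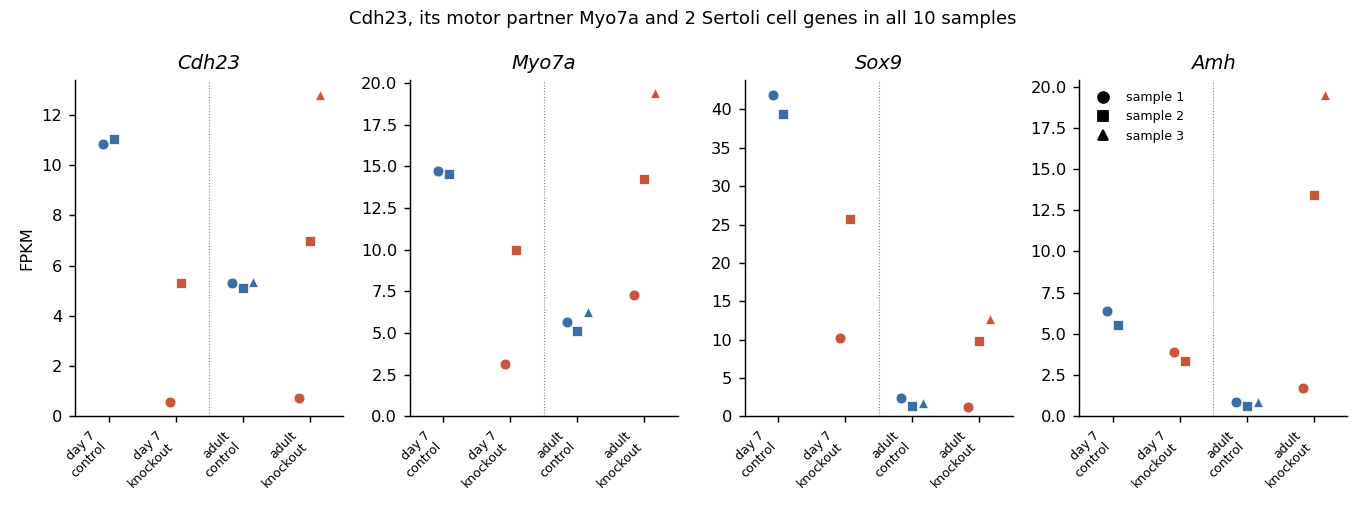
FPKM on linear axes of Cdh23, of Myo7a (a motor of the tip-link complex) and of the Sertoli cell genes Sox9 and Amh in all 10 samples, with controls in blue, libraries labelled knockout in red and a marker shape per sample number. Cdh23 was 0.55 in the first day 7 knockout and 0.74 in the first adult library labelled knockout, below every control of its own set.

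The known partners of CDH23 and PCDH15 were read from a list of 10 genes, of which 4 were tested at day 7. Their median log2 fold change was −0.63, with 3 genes lower and 1 higher without overlap, against 26.1% and 24.8% of all genes, and none was called. Myo7a, the myosin of that complex, had 14.70 and 14.57 FPKM in the controls against 3.12 and 10 in Amh-Rnf20-/- (log2 fold change −1.12, SE 0.54, adjusted p = 0.401). The first Amh-Rnf20-/- library was again the lowest. Tmie had a log2 fold change of −0.76 and Cib2 of 0.45, and Pcdh15 itself stayed at or below 0.03 FPKM in every day 7 sample.

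Other divergent cadherins were low at day 7. Cdh13, the lipid-anchored T-cadherin, had 1.82 and 2.26 FPKM in the controls against 1.90 and 2.05 in Amh-Rnf20-/-. Cdh17 had a log2 fold change of 0.28 (SE 0.20). Cdh16 had 1.36 and 0.44 in the controls against 0.48 and 0.13 in Amh-Rnf20-/- and was not tested.

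Desmosomal cadherins were present at a few FPKM at day 7, as the widely expressed pair Dsg2 and Dsc2. Dsg2 had 4.01 and 4.16 FPKM in the controls, and the Amh-Rnf20-/- libraries lay on either side of them at 4.92 and 1.79 (log2 fold change −0.24, SE 0.48, adjusted p = 0.85). Dsc2 behaved alike, with 3.42 and 3.26 in the controls against 3.57 and 2.41 in Amh-Rnf20-/- (−0.12, SE 0.23, adjusted p = 0.843). The first Amh-Rnf20-/- library was above and the second below the controls for both genes, and without the second sample the log2 fold changes were 0.31 and 0.14. Dsc3, of stratified epithelia, had 0.05 and 0.04 in the controls against 0.50 and 0.06 in Amh-Rnf20-/-. Dsc1 was at or below 0.01 in every sample. Of 9 genes of the desmosomal plaque, 6 were tested, none was called, and the median log2 fold change was −0.26. Jup, which encodes plakoglobin, had 44.25 and 43.16 FPKM in the controls against 33.45 and 26.93 in Amh-Rnf20-/- (−0.48, SE 0.13, adjusted p = 0.245). Pkp2, for plakophilin 2, was also below both controls (−0.33, adjusted p = 0.286), while Ppl, for periplakin, had 3.77 and 4.01 in the controls against 15.78 and 5.51 (1.49, SE 0.52, adjusted p = 0.302). Among 9 catenins and adaptors, 8 were tested, none was called, and the median was 0.12, from −1.09 for Ctnna2 to 0.36 for Arvcf.

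Of 5 solitary protocadherins tested at day 7, 3 were higher and 0 lower without overlap, against 24.8% and 26.1% of all genes. Pcdh7, a delta-1 member, had 7.91 and 7.93 FPKM in the controls against 16.76 and 8.59 in Amh-Rnf20-/-. The groups did not overlap, but the second Amh-Rnf20-/- library was close to the controls, and the log2 fold change was 0.71 (SE 0.33, adjusted p = 0.39), or 0.15 without the first Amh-Rnf20-/- library. Pcdh18, a delta-2 member, had 3.35 and 3.09 in the controls against 5.50 and 3.57 in Amh-Rnf20-/- (0.53, SE 0.24, adjusted p = 0.381). Pcdh9 had 0.55 and 0.59 against 1.13 and 0.79 (0.75, SE 0.26, adjusted p = 0.303 in edgeR's test). In all 3 genes the first Amh-Rnf20-/- library held the highest value. Pcdh19 and Pcdh1 overlapped between the groups, with 0.12 (SE 0.37) and −0.14 (SE 0.20), and Pcdh10, Pcdh17, Pcdh8, Pcdh11x, Pcdh12, Pcdh15 and Pcdh20 were below the filter.

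Markers of several other cell types also differed between the groups at day 7, and none was called. All 7 peritubular myoid and all 6 stromal fibroblast genes were higher without overlap, as were 24.8% of all genes, at median log2 fold changes of 0.95 and 0.88. Summed FPKM of myoid genes was 2248 and 2118 in controls against 3822 and 3901, and that of fibroblast genes was 2152 and 2236 against 3920 and 3306. Leydig cell genes had a median of 0.71 over 5 tested, macrophage genes of 0.57 over 3 and endothelial genes of 0.36 over 4. Spermatogonial genes had a median of −0.62 over 9, with 8 lower without overlap (26.1% of all genes were). Spermatocyte genes had a median of −0.63 over 3 and spermatid genes of 0.05 over 2. The part of these cells in the protocadherin values was not tested.

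The gamma protocadherin cluster was the most abundant of the 3 arrays at day 7. Its 21 genes summed to 6414 and 6478 counts in the controls and to 7180 and 7828 in the Amh-Rnf20-/- libraries, which were both above the controls. The log2 fold change of the sum was 0.26 (SE 0.08, adjusted p = 0.263 in edgeR's test), and it was not called. In GENCODE annotation of GRCm38, all 21 gamma genes share exons with another member, over a median of 44.8% of each gene's exonic length. Counts of single gamma genes are therefore estimates of how the common reads divide.

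Pcdhgc3, a C-type gene of the gamma array (Entrez 93706, chromosome 18, 37806410 to 37841873), held most of these reads. It had 51.72 and 52.85 FPKM in the controls against 57.08 and 63.14 in Amh-Rnf20-/- (log2 fold change 0.24, SE 0.08, adjusted p = 0.302). Its share of the gamma counts was 62.5% and 63.1% in controls against 61.4% and 62.9% in the Amh-Rnf20-/- libraries. The shares of smaller genes differed more, such as 1.86% and 1.58% for Pcdhga7 in the controls against 2.43% and 2.56%, and 3.29% and 2.27% for Pcdhgc5 against 1.87% and 1.77%. The antisense gene BC037039 overlaps 32.3% of the Pcdhgc3 exons, and the handling of strand is not given in the sources used here, so reads of the pair cannot be told apart.

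Pcdhga2 had the highest fold among the members tested at day 7, with 0.83 and 0.84 FPKM in the controls against 2.18 and 1.77 in Amh-Rnf20-/-. The groups were well apart (log2 fold change 1.27, SE 0.20), but the adjusted p was 0.141 in edgeR's test and 0.0131 in DESeq2. Pcdhga7 had 1.55 and 1.33 against 2.27 and 2.58 (0.79, SE 0.18, adjusted p = 0.194). Pcdhgb4 had 0.97 and 1.18 against 1.60 and 1.55 (0.59, SE 0.20, adjusted p = 0.29). Pcdhgb6 had 0.47 (SE 0.15, adjusted p = 0.286). These 4 genes and Pcdhgc3 were the 5 gamma genes with an unadjusted p under 0.05. In all, 12 of 20 tested gamma genes, which share exons, were higher and 2 lower without overlap, against 24.8% and 26.1% of all genes. The lower genes were Pcdhga11, with 2.99 and 3.19 against 2.84 and 2.55 (−0.16, SE 0.14), and Pcdhgc5 (−0.36, SE 0.23). Pcdhgb7 overlapped, with 4.06 and 3.23 against 2.52 and 3.55 (−0.22, SE 0.23).

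Beta protocadherins, which have no exons common to the whole array, summed to 456 and 453 counts in the day 7 controls and to 769 and 464 in the Amh-Rnf20-/- libraries. Only the first Amh-Rnf20-/- library was far from the controls, and the log2 fold change of the sum was 0.48 (SE 0.27, adjusted p = 0.457). Of 22 beta genes, 5 were tested. Pcdhb9 had 0.37 in both controls and 0.86 and 0.55 in the Amh-Rnf20-/- libraries (0.97, SE 0.36, adjusted p = 0.311). Alpha protocadherins were near absent, with 24 to 35 counts over 7 listed genes in the controls against 113 and 45 in Amh-Rnf20-/-, and the sum did not pass the filter.

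In adult testis, Dsg1a, Dsg1b, Cdh12, Cdh26 and the summed alpha protocadherins fell in the libraries labelled knockout, while Dsc2, Pcdh18 and Pcdhgc3 rose. Among 94 members, 40 passed the filter (an FPKM of 0.5 in at least 3 samples), within 15919 genes tested. In edgeR's quasi-likelihood test 5 members were called higher, 12.5% of those tested against 23.0% of all genes, and 10 were called lower, 25.0% against 23.7% of all genes. The groups did not overlap in 14 members that were higher (35.0%, against 42.4% of all genes) and in 17 that were lower (42.5%, against 43.1%). The shares of members were thus near or under those of the whole table. Many members passed the filter through a single group, so counts by direction depend on it. The median log2 fold change of the tested members was −0.62, against 0.01 over all genes, but the sign of that median depends on the scaling, and it was 0.22 with scaling by total counts.

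Scaling bears on every adult value. Trimmed-mean (TMM) factors were between 0.7104 and 0.7606 in the adult controls and between 1.274 and 1.418 in the libraries labelled knockout. Total-count scaling moved the median of all genes from 0.01 to 0.87, and FPKM follow totals in the same way. Fold changes below are on the TMM scale, and FPKM are given beside them. Of the 18 members described in full, Cdh11, Pcdhga4 and Pcdhgb2 changed sign between scalings and the 15 others did not.

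**Figure D3:**
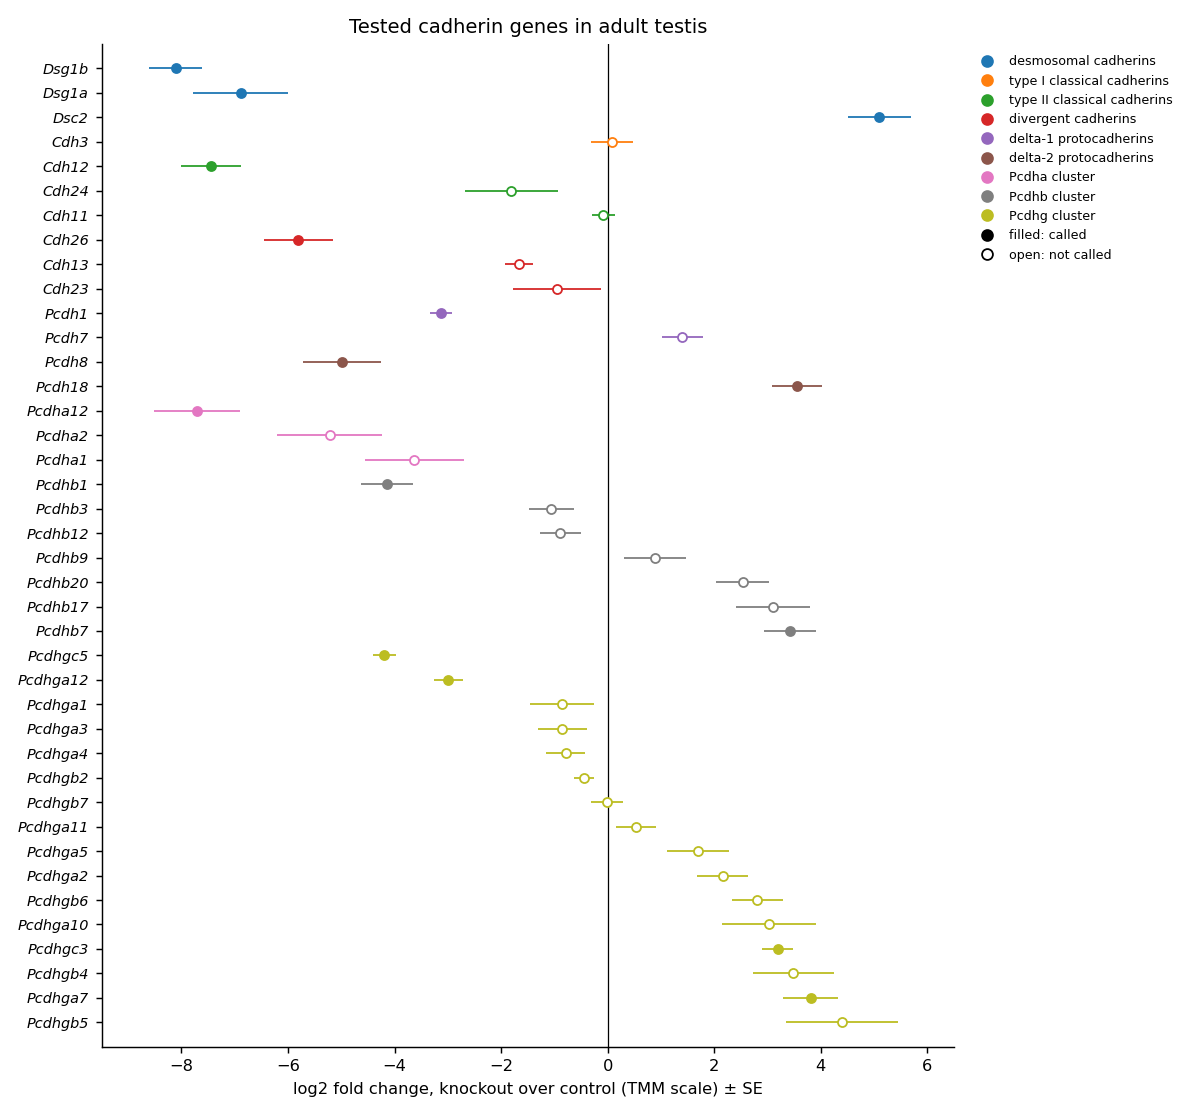
Log2 fold change (libraries labelled knockout over controls, TMM scale) with its standard error for the 40 tested members in adult testis, coloured by subfamily, with filled points for called genes. The tested alpha genes, which passed the filter through the controls, are all below 0. The gamma genes run from −4.19 for Pcdhgc5 to 4.39 for Pcdhgb5.

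Among desmosomal cadherins in the adult, Dsg1a and Dsg1b fell and Dsc2 rose. Dsg1a (Entrez 13510, chromosome 18, 20310873 to 20343353) was the most abundant member in control testes, with 14.57, 15.16 and 17.07 FPKM, and it had 0.00, 0.41 and 0.37 in the libraries labelled knockout. No sample came near the other group, and the log2 fold change was −6.89 (SE 0.89, adjusted p = 0.000556). Dsg1b had 2.36, 2.55 and 2.36 in controls against 0.00, 0.03 and 0.02 in the libraries labelled knockout (−8.11, SE 0.50, adjusted p = 4.37e-05). Counts over the group were 545 against 3, a scaled ratio of 318 (95% interval 108 to 1547 from counting error alone). Dsg1a, Dsg1b and Dsg1c are close copies, and counts such as 1138.54 for Dsg1a show that reads were divided among genes, so the division between them is uncertain. Dsg1c was under the filter, with 0.14 to 0.16 in the controls and at most 0.02 in the libraries labelled knockout, and Dsc1 had at most 0.08.

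Dsc2 (Entrez 13506, chromosome 18, 20030633 to 20059554) went the other way, from 0.01, 0.03 and 0.01 FPKM in the controls to 0.64, 1.33 and 1.80 (5.10, SE 0.59, adjusted p = 0.000347). It had 4 counts over the controls and 259 over the libraries labelled knockout, a scaled ratio of 37 (95% interval 14.3 to 137). Its usual partner Dsg2 had 0.03 in every control and 0.22, 0.93 and 1.76 in the libraries labelled knockout, in which the order of samples was that of Dsc2. Dsg2 did not pass the filter and had an adjusted p of 0.0049 when no filter was used. Dsc3 had 0.00, 0.00 and 0.01 against 0.14, 0.78 and 0.39, with an adjusted p of 0.00442 without the filter.

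Of 9 desmosomal plaque genes, 7 were tested in adult testis, 3 were called higher and 0 lower in edgeR's test (2 were lower at an unadjusted p under 0.05), against 23.0% and 23.7% of all genes. The median log2 fold change was 2.08. Those called were Ppl (6.65, SE 0.55, adjusted p = 0.0001), Pkp2 (2.25, SE 0.32, adjusted p = 0.000813) and Perp, a tetraspan protein of desmosomes (2.22, SE 0.31, adjusted p = 0.000755). Dsp, for desmoplakin, had 0.20 to 0.35 FPKM in the controls and 1.35 to 2.88 in the libraries labelled knockout without passing (2.08, adjusted p = 0.00182). Pkp1, for plakophilin 1 of stratified epithelia, had 1.35, 1.99 and 1.44 in controls against 0.00, 0.06 and 0.18 in the libraries labelled knockout (−5.22, SE 0.85, adjusted p = 0.00149). Jup had almost equal FPKM in the groups apart from 13.69 in the third library labelled knockout, and on the TMM scale −1.02 (adjusted p = 0.00411).

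**Figure D4:**
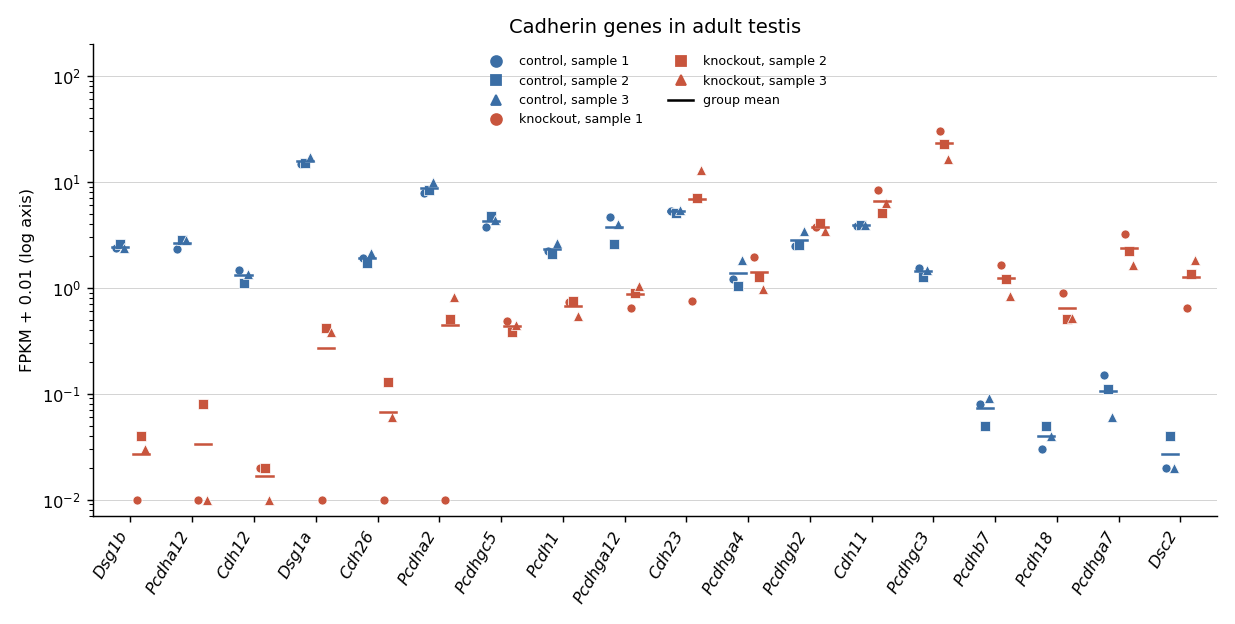
FPKM + 0.01 on a log axis for the 18 members described in full in adult testis, ordered by log2 fold change, with a point per sample (3 controls in blue, 3 libraries labelled knockout in red) and a line at each group mean. Points at the foot of the plot are listed at 0 FPKM, and Dsg1b and Dsc2 lie at opposite ends of the change.

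Classical cadherins in the adult held 1 called gene, Cdh12, a type II cadherin of neurons (Entrez 215654, chromosome 15, 20448878 to 21598421). It fell from 1.46, 1.09 and 1.35 FPKM in the controls to 0.01, 0.01 and 0.00 (−7.44, SE 0.56, adjusted p = 7.47e-05). Counts were 346 over the controls and 3 over the libraries labelled knockout, a scaled ratio of 202 (95% interval 68.5 to 984). Cdh11 had 3.84, 3.87 and 3.89 in controls against 8.40, 5.10 and 6.29 in the libraries labelled knockout. Its FPKM were all above the controls, yet its log2 fold change was −0.08 on the TMM scale (SE 0.22, adjusted p = 0.766) and 0.77 with total-count scaling (adjusted p = 0.0116). Cdh3, so abundant in the day 7 cultures, had 0.35, 0.53 and 0.23 in controls against 0.78, 0.56 and 0.80 in the libraries labelled knockout (0.08, SE 0.40). Cdh24 ranged from 0.57 to 3.5 among the controls and was not called (−1.81, SE 0.87). Below the filter, Cdh18 had 0.44, 0.44 and 1.28 in the controls and at most 0.05 in the libraries labelled knockout, and Cdh9 had 0.38 to 0.47 against 0.43 to 1.33.

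All 9 catenins and adaptors were tested in the adult, 3 were called higher and 1 lower, against 23.0% and 23.7% of all genes, and the median was 1.15. Ctnna1 (2.11, SE 0.15), Ctnnb1 (1.81, SE 0.15) and Ctnnd1 (1.61, SE 0.16), the general alpha, beta and p120 catenins, rose. Ctnna3, the alpha-T-catenin of heart and testis, fell from 25.18, 21.79 and 21.49 FPKM to 0.32, 0.74 and 1.23 (−5.53, SE 0.47, adjusted p = 0.000113).

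Among the divergent cadherins, Cdh26 (Entrez 381409, chromosome 2, 178430515 to 178487366) fell from 1.90, 1.72 and 2.12 FPKM in the controls to 0.00, 0.12 and 0.05 in the libraries labelled knockout (−5.81, SE 0.65, adjusted p = 0.00031). Cdh13 had 1.17 to 1.38 in the controls and 0.63 to 0.89 in the libraries labelled knockout and just missed the threshold (−1.66, SE 0.26, adjusted p = 0.00134). Cdh23 varied widely among the adult libraries labelled knockout, with 5.30, 5.10 and 5.36 in controls against 0.74, 6.97 and 12.79 in the libraries labelled knockout. The controls were within 0.26 of each other, and the libraries labelled knockout lay on both sides of them in FPKM, although all 3 were below the controls in TMM-scaled counts. The log2 fold change was −0.95 (SE 0.83, adjusted p = 0.324), or −0.28 without the first library labelled knockout. Sox9 gave the same order in those samples, with 1.20, 9.86 and 12.65 against 2.34, 1.37 and 1.77 in the controls, and so did Amh, with 1.70, 13.40 and 19.47 against 0.88, 0.63 and 0.89. Of 14 Sertoli cell genes, 3 were called higher and 1 lower, against 23.0% and 23.7% of all genes. Their median was 1.53 over the group and −0.42, 1.69 and 1.84 in the 3 libraries labelled knockout. The part of this in the Cdh23 values was not tested.

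Partners of CDH23 were tested for 9 of 10 genes in the adult, with 0 called higher in edgeR's test (2 at an unadjusted p under 0.05), 3 called lower and a median of 0.24, against 23.0% and 23.7% of all genes called higher and lower. Ush1c, for the scaffold harmonin, fell from 1.22, 3.39 and 2.51 FPKM to 0.00, 0.07 and 0.00 (−7.23, SE 0.91, adjusted p = 0.00049). Myo7a was not called, with 5.67, 5.11 and 6.27 against 7.31, 14.23 and 19.39 (0.38, SE 0.31). For Myo7a the first library labelled knockout was the lowest of its group too, although above the controls in FPKM. The order differed within the list. Whrn and Ush1g were highest in that library, with 10.9, 7.29 and 5.31 FPKM and with 8.51, 7.98 and 4.58 FPKM in the 3 libraries.

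Of 4 solitary protocadherins tested in the adult, 1 rose and 2 fell, in a table where 46.7% of all genes were called. Pcdh1, a delta-1 member of epithelia (chromosome 18, 38185914 to 38212048), fell from 2.22, 2.07 and 2.66 FPKM to 0.73, 0.74 and 0.53 (−3.13, SE 0.21, adjusted p = 5.41e-05). Pcdh8, which takes part in the internalisation of cadherins at synapses, fell from 1.24, 0.87 and 0.89 to 0.00, 0.05 and 0.11 (−4.99, SE 0.73, adjusted p = 0.000961). Pcdh18 (Entrez 73173, chromosome 3, 49743291 to 49757383) rose from 0.02, 0.04 and 0.03 to 0.88, 0.50 and 0.51 (3.56, SE 0.47, adjusted p = 0.000618), with 7 counts over the controls against 148, a scaled ratio of 12.1 (95% interval 5.72 to 30.6). Pcdh7 had 0.37, 0.33 and 0.22 in controls against 2.87, 1.29 and 1.74 in the libraries labelled knockout, without being called (1.4, SE 0.38, adjusted p = 0.014). Pcdh17 had 0.24 to 0.40 against 0.03 to 0.06 and was called lower only when no filter was used (−3.55, adjusted p = 0.000419). Pcdh10 had 0.23 to 0.31 against 0.02 to 0.13, and Pcdh15 0.25 to 0.46 against 0.02 to 0.37.

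Alpha genes, close to absent from the day 7 cultures, summed to 1052, 1137 and 1385 counts in the controls and to 41, 104 and 172 in the libraries labelled knockout. The sum fell, with a log2 fold change of −4.32 (SE 0.50, adjusted p = 0.000362). It was −3.82 without the first library labelled knockout (adjusted p = 6.03e-07) and −4.73 without the third (adjusted p = 0.000932). Leaving out any control or the second library labelled knockout ended the call, with adjusted p from 0.00199 to 0.00319. Pcdha2 carried 59.7% to 63.5% of the alpha counts in the controls, with 7.89, 8.43 and 9.95 FPKM, against 0.00, 0.50 and 0.81 in the libraries labelled knockout (−5.22, SE 0.99, adjusted p = 0.00296, not called). Pcdha12 had 2.30, 2.84 and 2.82 against 0.00, 0.07 and 0.00 and was called (−7.71, SE 0.80, adjusted p = 0.000224). Pcdha1 had 1.21, 1.05 and 1.60 against 0.00, 0.26 and 0.31 (−3.63, SE 0.93, adjusted p = 0.0108). All 3 tested alpha genes were lower without overlap, as were 43.1% of all genes. They passed the filter through the controls, so the filter largely set that direction and nothing is concluded from it. The sum takes in all 13 alpha genes, of which 12 share exons with another member over a median of 53.5% of their length.

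The gamma array was divided among its genes in another way in the libraries labelled knockout than in the controls. Gamma counts summed to 1340, 1257 and 1433 in the controls and to 4329, 3336 and 2503 in the libraries labelled knockout. On the TMM scale the sum overlapped between groups, with a log2 fold change of 0.54 (SE 0.24, adjusted p = 0.0785). Pcdhgc3 rose from 1.54, 1.25 and 1.46 FPKM to 30.23, 22.82 and 16.38 (3.19, SE 0.29, adjusted p = 0.000136). Over the alternative scalings and tests its log2 fold change ran from 3.0 to 4.03. Ranges were wider for other called genes, from −7.85 to −1.19 for Cdh12 and −8.52 to −1.75 for Dsg1b. Pcdh1 (−3.33 to −0.99) and Pcdh18 (0.65 to 4.38) reached absolute values under the threshold of 1. The alternatives include limma on log2(FPKM + 1), where the added 1 shrinks fold changes of genes at a few FPKM or less. The width of these ranges thus partly follows the level of each gene and does not rank the calls. The Pcdhgc3 share of the gamma counts was 7.22% to 8.45% in the controls and 44.8% to 49.2% in the libraries labelled knockout. In the controls the leading genes were Pcdhgc5, with 20.6% to 27.3% of the counts, and Pcdhga12, with 16.2% to 27.7%. In the libraries labelled knockout they held 0.77% to 1.18% and 1.13% to 3.05%.

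**Figure D5:**
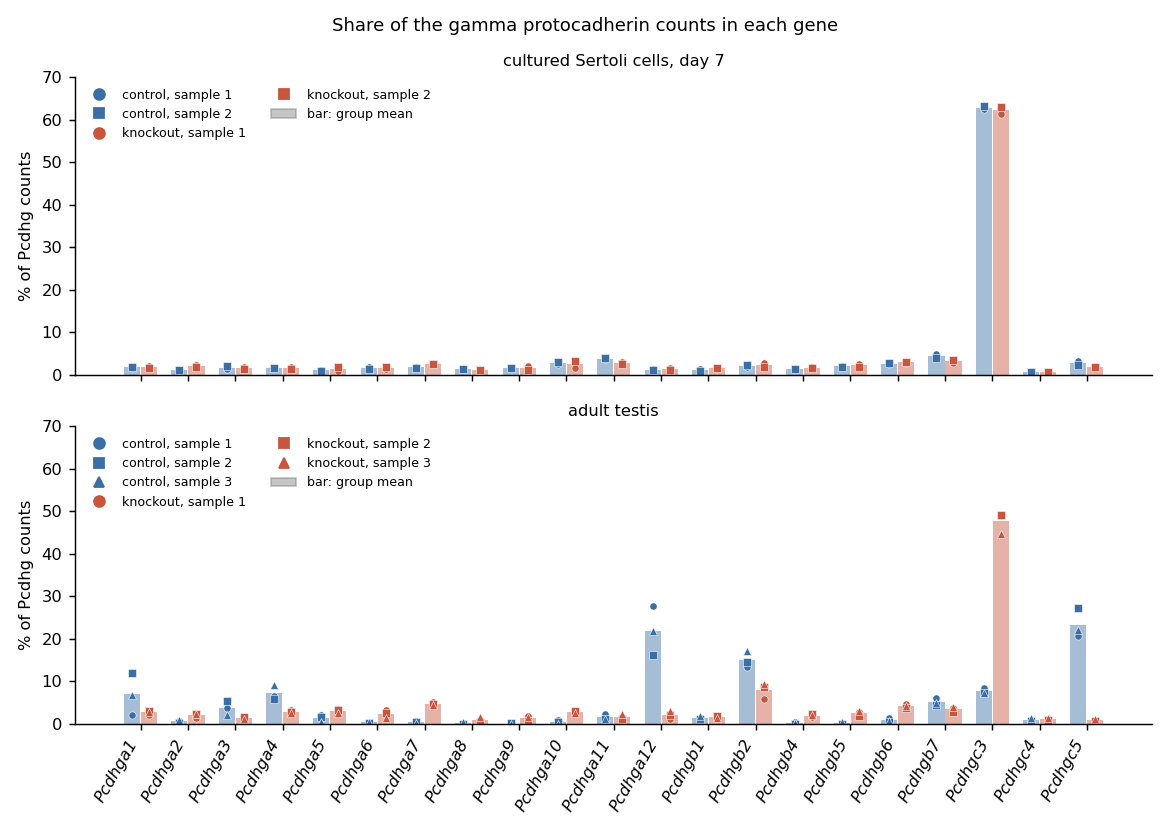
Percent of the summed gamma protocadherin counts in each of 21 genes, with bars at the group mean and a point per sample, at day 7 (upper panel) and in adult testis (lower panel). Pcdhgc3 leads in all day 7 samples (61.4% to 63.1%) and in the adult libraries labelled knockout (44.8% to 49.2%), but not in the adult controls.

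Pcdhgc5 fell from 3.75, 4.71 and 4.36 FPKM to 0.47, 0.37 and 0.43 (−4.19, SE 0.21, adjusted p = 3.15e-05), the lowest adjusted p of the members. Pcdhga12 fell from 4.65, 2.57 and 3.98 to 0.64, 0.89 and 1.03 (−2.99, SE 0.27, adjusted p = 0.000136). Both genes were thus low in every library labelled knockout, with groups far apart. Pcdhga7 rose from 0.14, 0.10 and 0.05 to 3.19, 2.19 and 1.63 (3.81, SE 0.52, adjusted p = 0.000674). Of the 16 tested gamma genes, 8 were higher and 3 lower without overlap, against 42.4% and 43.1% of all genes. Apart from Pcdhgc3, the higher genes passed the filter only through the libraries labelled knockout, and Pcdhgc5 passed only through the controls. The filter thus bears on this tally, and nothing is concluded from it. The 6 higher genes short of a call reached log2 fold changes from 1.70 for Pcdhga5 to 4.39 for Pcdhgb5. Pcdhgb2 had 2.47, 2.54 and 3.45 against 3.71, 4.09 and 3.45, which was −0.44 on the TMM scale (SE 0.19, adjusted p = 0.067) and 0.41 with total-count scaling. Pcdhga4 had 1.21, 1.03 and 1.82 against 1.95, 1.26 and 0.97 and overlapped (−0.79, SE 0.37, or 0.04 with total-count scaling). Antisense transcripts overlap the exons of several members, among them Pcdhga10 (55.2%), Pcdhgc3 (32.3%), Pcdhga11 (29%), Pcdhgb7 (16.4%), Pcdhga7 (10.3%) and Pcdhga12 (8.31%) of the gamma array, and Pcdhb12 (63.5%), Pcdha11 (31.1%), Pcdh8 (10.9%) and Pcdha12 (9.95%) outside it.

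Beta genes summed to 212, 180 and 203 counts in the adult controls and to 802, 437 and 459 in the libraries labelled knockout (0.72, SE 0.29, adjusted p = 0.0567), without a call. Pcdhb7 rose from 0.07, 0.04 and 0.08 FPKM to 1.64, 1.20 and 0.82 (3.42, SE 0.48, adjusted p = 0.000762). Pcdhb1 fell from 0.82, 0.86 and 1.23 to 0.06, 0.06 and 0.18 (−4.14, SE 0.49, adjusted p = 0.00037). Of 22 beta genes 7 were tested, 3 of them higher and 2 lower without overlap, against 42.4% and 43.1% of all genes. The higher genes passed the filter only through the libraries labelled knockout, and Pcdhb1 only through the controls. The 15 beta genes not tested had at most 1.09 FPKM in any sample.

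Cell type genes moved with the adult groups, in a table where 23.0% of all genes were called higher and 23.7% lower. All 10 spermatid genes were lower without overlap, 7 of them called, at a median log2 fold change of −9.12. Their summed FPKM was 126137 to 194853 in the controls and 16 to 138 in the libraries labelled knockout. All 10 spermatocyte genes were also lower without overlap, with a median of −4.41. Of these, 0 were called in edgeR's test and 8 had an unadjusted p under 0.05. Spermatogonial genes had a median of −1.75, with 2 of 9 called higher. All 8 Leydig cell genes (median 3.92), all 6 fibroblast genes (4.40), 6 of 7 macrophage genes (3.64), 4 of 7 myoid genes (2.39, with 1 called lower) and 2 of 6 endothelial genes (3.07) were called higher. The part of these cell types in the member values was not tested.

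Calls among the adult members also turned on single libraries. Leaving out the first library labelled knockout raised the members called higher to 8 and those called lower to 14, of 40. In the same fit 33.1% of all genes were called higher and 31.6% lower, so calls rose over the whole table. Leaving out any control gave 0 members called higher, with 6.8% to 8.41% of all genes. Cdh12, Dsg1b, Pcdh1 and Pcdhgc5 were called in all 6 fits that left out 1 library. Pcdhgc3 and Pcdhga12 were called in 3 of the 6, Pcdha12, Pcdhb1 and Pcdhb7 in 2, and Dsg1a, Dsc2, Cdh26, Pcdh8, Pcdh18 and Pcdhga7 only in that without the first library labelled knockout.

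Of 29 members tested in both tables, 11 had groups without overlap in the same direction. The 9 higher ones were 31% of the 29, against 15.1% of the 12378 genes tested in both tables, and the 2 lower ones were 6.9%, against 9.47% of those genes. Cdh23 and Pcdhgc5 were the lower ones, with day 7 and adult log2 fold changes of −1.79 and −0.95 and of −0.36 and −4.19. The higher ones were Pcdh7 (0.71 and 1.4), Pcdh18 (0.53 and 3.56) and 7 gamma genes, among them Pcdhga2 (1.27 and 2.16) and Pcdhgc3 (0.24 and 3.19). Apart from Pcdhgc3, these passed the adult filter only through the libraries labelled knockout, and Pcdhgc5 passed it only through the controls. The filter thus largely set their adult direction, and the gamma genes share exons and are not separate observations. Nothing is concluded from the shares. The tables were normalised separately and hold different material, so the sizes are given side by side and were not compared.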

How the data were processed

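RNA was selected with oligo(dT), and per the labels and the study's methods the authors mapped reads with HISAT to GRCm38.p6 and with Bowtie2 to reference genes, and quantified them with RSEM. Versions, read filters and strand handling are not given in the sources used here. Both deposited tables held FPKM, TPM and estimated counts per gene and sample, and the deposited TPM were not used.

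Estimated counts were rounded to whole numbers and fitted over all genes of each table with edgeR 4.0.16 (R 4.3.3, TMM scaling, quasi-likelihood test, Benjamini-Hochberg adjustment). Genes needed an FPKM of 0.5 or more in 2 samples at day 7 and in 3 in the adult table. A call was an absolute log2 fold change over 1 with an adjusted p under 0.001. The SE is the log2 fold change divided by the square root of F. Each protocadherin cluster was also summed to 1 row and refitted. Overlap between groups was read on TMM-scaled CPM. Alternatives were RLE and total-count scaling, DESeq2 1.42.0, limma 3.58.1 on log2(FPKM + 0.1) and log2(FPKM + 1), other filters, a replicate block and leaving out each library. The code was tested on simulated counts in which 200 genes were changed, read at an adjusted p under 0.05 in edgeR's test. At day 7 it recovered 54 of the 2-fold and 90 of the 4-fold changes, with 15 false calls. In the adult it recovered 0 and 37, with 2 false calls, so a gene without a call may still differ.

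Full values are given for the 10 members with the highest mean FPKM in a table and for the 5 largest rises and 5 largest falls among called members without overlap (at day 7, among members without overlap at an unadjusted p under 0.05), plus the cluster sums. Other genes named were chosen after their values were seen, and 1 gene of a list is not reported here. The members and lists were chosen with earlier results of these data known. Totals of 15431912 to 17705347 counts per sample leave members of a few counts imprecise. Intervals of count ratios (95%, exact binomial) cover counting error only. RefSeq promoters covered 21 of 29 members outside chromosome 18. Exon overlaps come from GENCODE vM21, and gene positions and promoters from RefSeq, both on GRCm38.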

Additional observations from a re-analysis of the deposited data

Results flagged for a closer look

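Among members tested in both tables, 2 had groups that did not overlap in opposite directions. Pcdhga12 was higher in both day 7 Amh-Rnf20-/- samples, with a log2 fold change of 0.48 (SE 0.24, adjusted p = 0.42 in edgeR's test), and lower in all 3 adult samples labelled knockout, with −2.99 (SE 0.27, adjusted p = 0.000136). Pcdhgb2 had 0.49 at day 7 (SE 0.26, adjusted p = 0.43) and −0.44 in adult testis (SE 0.19, adjusted p = 0.067), where total-count scaling gave 0.41. The difference between the tables was not tested for either gene. Both are gamma genes that share exons with the rest of their array.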

How the results depend on the processing

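At day 7 the count of 0 members called became 3 (Cdh23, Pcdh7 and Pcdhga2) without the second Amh-Rnf20-/- sample, where 5.05% of all genes were called, and it ranged from 0 to 3 over fits that left out 1 library, where the lone sample is assumed to vary like the other group. Without a filter 35 of 85 members were higher without overlap in place of 18 of 39, and leaving out 1 library gave 6 to 12 lower without overlap in place of 4. The shares of all genes without overlap in these fits are not given here, so the changes cannot be read as particular to the members. The day 7 median of 0.28 was 0.14 with limma on log2(FPKM + 1), 0.46 without a filter and 0.15 without the first Amh-Rnf20-/- sample. Over fits without 1 library the sign turned for Cdh11 (−0.22 to 0.05), Cdh3 (−0.02 to 0.12), Dsc2 (−0.43 to 0.14), Dsg2 (−1.15 to 0.31) and Pcdhgb7 (−0.49 to 0.00).

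In adult testis the 5 members called higher became 11 with DESeq2 (28.9% of all genes, against 23.0% with edgeR) and 10 with limma on log2(FPKM + 0.1) (36.9% of all genes). They became 2 at a mean FPKM of at least 1 (24% of all genes) and 0 to 8 without 1 library (6.8% to 33.1% of all genes). At an adjusted p under 0.05 in edgeR's test without a fold threshold, 14 members were higher and 13 lower, against 6503 and 6466 of all 15919 genes. The 10 called lower became 6 at a mean FPKM of at least 1 (23.6% of all genes) and 4 to 14 without 1 library (10.1% to 31.6% of all genes). With the replicate block 0 members and 0% of all genes were called in either direction, and the alpha sum was −4.49 (adjusted p = 0.00204). Same-numbered samples correlated by at most 0.0358 in their deviations. At day 7 the deviations of 2 samples from their mean mirror each other, so that value cannot show pairing. In the adult each sample correlated best with its own number, by 0.0107 to 0.0247. Whether the numbers pair the samples was therefore not settled. Without a filter 33 of 94 members were higher and 33 lower without overlap, and 4 were higher at a mean FPKM of at least 1. The count lower without overlap was as small as 12 over the alternatives. The shares of all genes without overlap in these fits are not given here. The median of −0.62 was −0.81 with RLE scaling and with DESeq2, 0.22 with total counts, 0.33 and 0.20 with limma, −0.01 without a filter, −1.0 at a mean FPKM of at least 1 and −0.61 to −0.31 without 1 library. The alpha sum was −3.44 with total counts (adjusted p = 0.00104) and −4.73 to −3.82 without 1 library. Over the alternatives that kept every library it ranged from −4.54 to −2.79. The gamma sum was called with limma on log2(FPKM + 1), at 1.33 (adjusted p = 0.000885). Signs turned for Cdh11 (0.77 with total counts, 0.73 and 0.62 with limma, −0.21 to 0.08 without 1 library, with 0.06 among them), Pcdhga4 (0.04, 0.02 and 0.02) and Pcdhgb2 (0.41, 0.41 and 0.32). Of 247 refits of the 18 adult members described in full, 57, in 13 members, lost the call. The causes were not tested beyond fewer genes or samples in those fits.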

Other observations

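Other families of the cadherin network had calls in the adult, where 46.7% of all genes were called. Of 18 further cadherin superfamily genes 10 were tested, 1 was called higher and 4 lower, with a median log2 fold change of −1.18. Cdhr5, known from the brush border of gut and kidney, rose from 0.38, 0.46 and 0.73 FPKM to 30.05, 14.69 and 14.43 (4.43, SE 0.45, adjusted p = 0.000216 in edgeR's test). Cdhr4 fell from 13.22, 16.99 and 15.75 to 0.61, 0.88 and 1.12 (−5.00, SE 0.25). Cdhr1, a photoreceptor cadherin (−5.70, SE 0.47), the giant cadherin Fat3 (−5.67, SE 0.29) and the planar polarity gene Celsr2 (−3.44, SE 0.22) fell as well. At day 7, 8 of these genes were tested, none was called, and the median was 0.02, with Dchs1 at 1.30 and 1.06 against 4.0 and 2.45 FPKM (1.49, SE 0.28, adjusted p = 0.166).

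Of 8 genes for cadherin cleavage and trafficking, 5 were called higher and 2 lower in the adult, with a median of 1.25. Among all adult genes, 23.0% were called higher and 23.7% lower. Adam10, the main sheddase of cadherins (2.38, SE 0.20), and Furin, which trims cadherin precursors (3.40, SE 0.15), rose, as did Psen2 (2.89, SE 0.23). At day 7 none of the 8 was called, with a median of 0.07. Of 12 genes for CTCF, cohesin and DNA methylation, which act on the choice of clustered protocadherin promoters, 3 were called higher and 2 lower in the adult (median −0.01), from −2.02 for Nipbl to 3.13 for Smc1a. None was called at day 7 (median −0.06).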
